A study of Homo sapiens with 4 samples.

Results

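The genes described here are 10 leukocyte genes whose products act at the cell surface, as signaling adaptors, in the lysosome or on the actin cytoskeleton: SPN, PTPRC, TYROBP, FCER1G, LAPTM5, CD53, CD37, LCP1, CORO1A and WAS. They were chosen by name, as the rows of the expression table whose gene symbol equals one of these, and the 10 genes were found among 58274 gene identifiers, with 1 row each. The study followed hematopoietic differentiation of a human iPSC line named BC1 by RNA sequencing of 4 populations. These were the undifferentiated line, mesoderm sorted as APLNR+ on day 2, hemogenic endothelial progenitors (HEPs) sorted as CD31+CD34+ on day 5, and hematopoietic progenitor cells (HPCs) sorted as CD43+ on day 8. Activin A and BMP4 were given for the first 2 days, so the APLNR+ cells had seen these factors alone, while the CD31+CD34+ and CD43+ cells had afterwards been kept in VEGF and bFGF. All 4 populations come from 1 cell line, without a transgene named in the labels, and each was measured in 1 library. No difference below therefore has a replicate check and no p-value is given. The values are FPKM, in which fragments are scaled to the length of the transcript and the depth of the library, so that levels can be compared between genes per length.

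White blood cells and their progenitors carry a set of proteins that most other cells lack. Some cover the surface, such as the sialomucin CD43 and the phosphatase CD45, and others are small membrane adaptors that pair with receptors lacking a signaling tail and recruit kinases through a tyrosine motif called ITAM. A further group bundles, caps or nucleates actin and lets blood cells crawl, form contacts and engulf particles. Several of these genes belong to a family whose other members are used by most tissues, which allows the blood version to be set beside its relatives in the same library.

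The level of 9 of the 10 genes was highest in the CD43+ library, and the exception, PTPRC, was close to 0 everywhere. The 9 include CD53, which reached 1 FPKM in that library alone, and SPN, which encodes the antigen used to sort it. The counts and medians below also include SPN. Of the 17137 genes that reached 1 FPKM in some library, PTPRC not among them, 24.0% were highest in CD43+. A gene is said below to rise or fall when log2(FPKM + 1) moved by at least 1 between consecutive populations. A gene under 1 FPKM cannot fall by this rule, even if it drops to 0. In BC1 this held for LAPTM5, LCP1, CD53, FCER1G, WAS and PTPRC. In mesoderm it held for SPN, CD53, WAS and PTPRC, and in HEPs for CD53 and PTPRC. The counts of falls are limited by this. From BC1 to mesoderm, 0 of the 10 rose and 0 fell, while 9.15% of all genes kept rose and 9.32% fell. From mesoderm to HEPs, 7 rose and 1 fell (CORO1A), beside 13.0% and 11.4% of all genes kept. From HEPs to HPCs, 7 rose and 0 fell, beside 7.63% and 13.5%. The counts given below for other gene lists are to be read beside these same shares. The median change of the 10 genes on the log2 scale was 0.00, 1.33 and 2.27 at the 3 steps, and that of all genes kept was 0.00, 0.01 and -0.08. SPN, TYROBP, FCER1G, CD37, LCP1 and WAS rose at both later steps, LAPTM5 at the former alone and CORO1A at the latter alone.

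**Figure D1:**
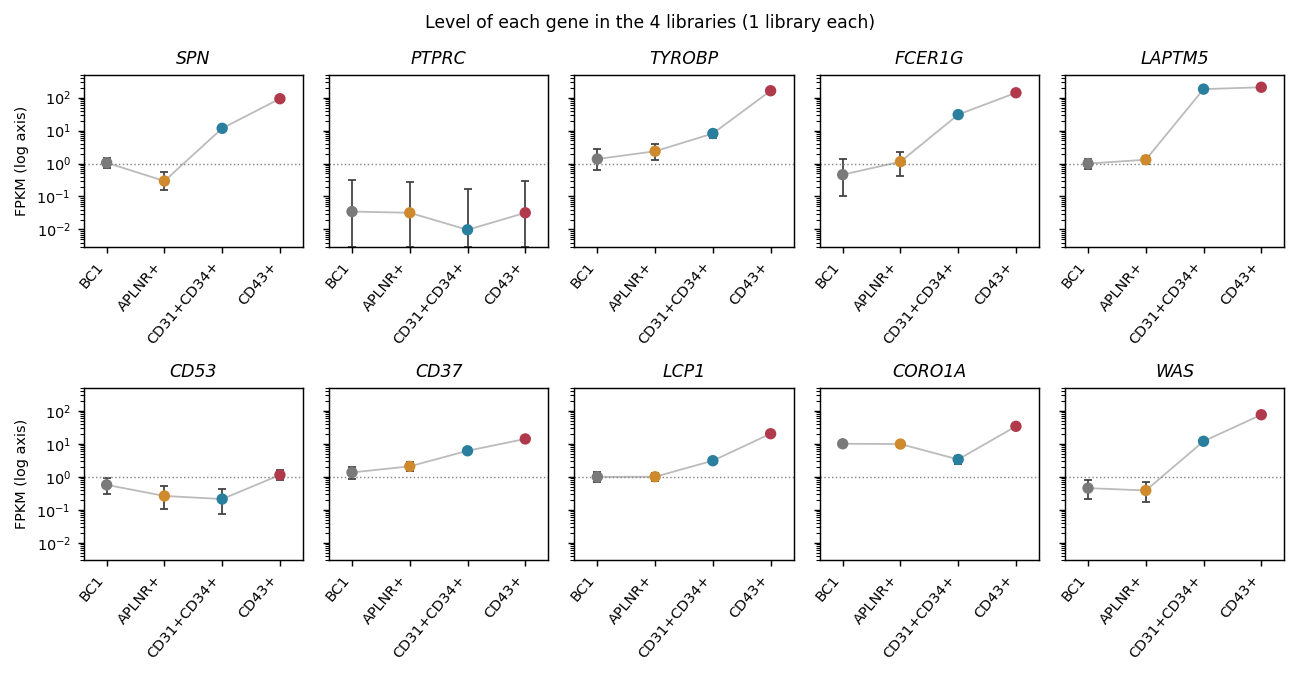
Level in FPKM (log axis) of each of the 10 genes in the 4 libraries, 1 point per library, with bars for the 95% interval of counting error and a dotted line at 1 FPKM. PTPRC is at 0.0349 FPKM or lower in each library, CD53 reaches 1.14, and the other 8 genes are between 14.1 and 205 FPKM in CD43+.

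The 10 genes were not equally abundant in the HPCs. Their order in CD43+ was LAPTM5, TYROBP, FCER1G, SPN, WAS, CORO1A, LCP1, CD37, CD53 and PTPRC. At the median length of the coding transcripts, the counting intervals of neighbours in this order did not overlap. The intervals depend on that length: TYROBP rested on 892 fragments at the median and on 453 at its shortest transcript, where its interval would be wider. In CD31+CD34+ the order was led by LAPTM5, FCER1G and WAS, and the intervals of WAS and SPN, of SPN and TYROBP, and of TYROBP and CD37 overlapped. In BC1 and APLNR+, CORO1A stood alone at the top, and the neighbours TYROBP and CD37 could not be told apart by counting error.

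Transcripts of the sorting markers were compared with the labels. APLNR was at 1073 FPKM in APLNR+ and 0.782 in BC1. CD34 was at 102 FPKM and PECAM1 (CD31) at 93.1 in CD31+CD34+, from 0.645 and 0.460 in APLNR+. PECAM1 was higher still in CD43+, at 126 FPKM, and CD34 lower, at 42.6. Depth, as recovered from the steps between low values, was between 19600000 and 23600000 fragments, so that libraries differed little in precision. A level or fold is given below with a 95% interval that covers counting error only and says nothing of how cultures or sorts vary. In bulk RNA a lower level from fewer expressing cells and one from less RNA per cell cannot be told apart.

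To show the regulatory DNA beside the levels, the bases before the annotated start are printed for TYROBP, which rose most at the last step, for LAPTM5, which rose most at the step before, and for CD53 and PTPRC, the genes with the lowest levels. They come from the RefSeq table on GRCh38.p14, are written 5′ to 3′ on the strand of the gene and stop before the first exon base that GENCODE gives the gene there. Capitals mark matches to any of 4 motifs, searched on both strands and with no overlap between different motifs in these stretches. The first motif is GAGGAA, the core bound by PU.1-type ETS factors, and it reads TTCCTC when it lies on the opposite strand. The second is TGTGGT, the core of sites for RUNX factors. The third, AGATAA, is a core of sites for GATA factors, and the last, CAGCTG, is an E-box. The TYROBP bases are at chr19:35908296-35908545 on the minus strand, those of LAPTM5 at chr1:30757821-30758024 on the minus strand, those of CD53 at chr1:110872898-110873147 on the plus strand and those of PTPRC at chr1:198638790-198638967 on the plus strand. The PTPRC stretch lies inside the span given for the gene below, which holds an earlier start.
TYROBP: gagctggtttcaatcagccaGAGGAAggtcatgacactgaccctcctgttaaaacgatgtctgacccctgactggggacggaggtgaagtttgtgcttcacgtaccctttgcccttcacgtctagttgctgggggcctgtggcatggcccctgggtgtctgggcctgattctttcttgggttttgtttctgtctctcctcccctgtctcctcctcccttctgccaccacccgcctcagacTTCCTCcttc
LAPTM5: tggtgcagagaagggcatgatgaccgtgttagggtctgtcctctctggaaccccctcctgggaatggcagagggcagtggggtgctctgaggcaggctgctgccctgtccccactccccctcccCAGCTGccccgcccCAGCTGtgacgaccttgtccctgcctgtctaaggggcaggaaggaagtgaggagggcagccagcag
CD53: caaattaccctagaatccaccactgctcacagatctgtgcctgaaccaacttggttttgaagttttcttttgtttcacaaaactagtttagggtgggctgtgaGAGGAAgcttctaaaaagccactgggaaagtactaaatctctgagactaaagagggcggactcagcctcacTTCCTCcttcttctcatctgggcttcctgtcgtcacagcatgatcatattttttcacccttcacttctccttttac
PTPRC: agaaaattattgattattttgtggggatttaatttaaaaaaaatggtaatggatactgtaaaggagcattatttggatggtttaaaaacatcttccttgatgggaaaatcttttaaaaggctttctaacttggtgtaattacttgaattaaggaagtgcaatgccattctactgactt
The PU.1-type core occurs in these stretches of TYROBP and CD53, on opposite strands within each, and the E-box occurs in that of LAPTM5. None of the motifs occurs in the PTPRC stretch, which says only that these letters are not in this window.

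The table held 10 windows of 250 bases for 8 of the genes. GAGGAA was found in 4 of them (CD53, CORO1A, LCP1 and TYROBP), beside 23.6% of all 35116 windows of this length. TGTGGT was found in 3 (FCER1G, LCP1 and WAS), beside 11.0%. CAGCTG was found in 2 (FCER1G and LAPTM5), beside 14.0%, and AGATAA in 0, beside 9.17%. The printed CD53 window carries the same motif as that of TYROBP, while the level of CD53 in CD43+ was far lower, and the window of the other CD53 start in the table holds none of the 4 motifs. Where GENCODE places an exon of another transcript in a window, the counts run past the limit used for printing: the TGTGGT of FCER1G and LCP1 and the CAGCTG of FCER1G lie beyond that limit. A match is a description of the letters and not a binding site.

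SPN encodes CD43, the heavily glycosylated sialomucin that coats white blood cells and the antigen by which the HPCs were sorted. Its level in CD43+ is therefore a check of the sort and not a finding, and without it 6 of 9 genes rose at the last step. SPN (ENSG00000197471.11, chr16:29662979-29670876, plus strand) was at 1.06 FPKM in BC1, 0.294 in the mesoderm cells, 11.7 in the HEPs and 92.4 in the HPCs. The mesoderm library was the lowest, and SPN was already 39.7-fold higher (21.1 to 77.0) in the CD31+CD34+ cells than there. It rose a further 7.90-fold (7.16 to 8.72) into the HPCs. The step from BC1 to mesoderm was a change of -0.67, under the threshold, with a level 3.60-fold lower (1.72 to 7.57). SPN shares 38 of its 7382 exon bases with the gene AC009086.2, which was at 4.29 FPKM in CD43+, so a small part of its reads is uncertain.

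Among 6 sialomucins and related surface mucins, SPN supplied 4.50% of the summed FPKM in CD31+CD34+ and 21.8% in CD43+. CD164 (endolyn), which is widely expressed, held the largest share in CD43+ at 259 FPKM, after 32.2, 32.8 and 121. CD34, the sorting marker of the HEPs, fell from 102 to 42.6 FPKM as SPN rose. Both genes encode antigens used for sorting, so these directions and the share of SPN cannot be told apart from the sorts. PODXL (podocalyxin), abundant on pluripotent cells, was at 351 FPKM in BC1 and 2.00 in CD43+. All 5 relatives of SPN rose from mesoderm to HEPs, and at the last step 2 rose and 2 fell. CD34 is counted among those that rose at the former step and fell at the latter.

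PTPRC encodes CD45, the receptor tyrosine phosphatase that opens Src-family kinases for antigen receptor signaling and marks nearly all nucleated blood cells. PTPRC (ENSG00000081237.18, chr1:198638671-198757283, plus strand) was at 0.0349 FPKM in BC1, 0.0320 in the mesoderm cells, 0.00974 in the HEPs and 0.0320 in the HPCs. At the median length of its coding transcripts these values stand for less than 1 fragment per library, and for 3.53 fragments in CD43+ at its longest transcript of 5390 bases. PTPRC thus rested on at most 3.53 fragments in any library, at or near the floor of 3, so no difference between the populations was detectable at this depth. It is the gene of the 10 that did not pass the filter of 1 FPKM. Counting error alone allows up to 0.289 FPKM in CD43+.

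Of 12 other receptor tyrosine phosphatases, 3 rose and 3 fell from mesoderm to HEPs, and 1 rose and 7 fell from there to CD43+, with a median change of -1.15. Of all genes kept, 13.0% rose and 11.4% fell at the former step, and 7.63% rose and 13.5% fell at the latter. PTPRF, known from epithelial adhesion sites, was at 92.1, 77.6, 87.4 and 29.3 FPKM in the order of the populations and stayed the most abundant of them in CD43+. PTPRA, which is widely expressed, was at 26.3 FPKM there. PTPRC and these 12 genes together summed to 297 FPKM in BC1 and to 101 in CD43+.

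TYROBP encodes DAP12, a small ITAM adaptor that pairs with activating receptors of myeloid and natural killer cells, TREM2 among them. TYROBP (ENSG00000011600.11, chr19:35904401-35908295, minus strand) was at 1.37 FPKM in BC1, 2.35 in the mesoderm cells, 8.13 in the HEPs and 161 in the HPCs. The HPC library stood far above the others. TYROBP rose 3.45-fold (1.87 to 6.74) into CD31+CD34+ and 19.8-fold (14.9 to 27.0) into CD43+, the largest last step among the 10 genes on the log2 scale. The level in the HEPs was 5.04% of that in the HPCs, the smallest such share of the 10.

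FCER1G encodes the common gamma chain of Fc receptors, the ITAM adaptor that carries the signal of the high-affinity IgE receptor, of activating IgG receptors and, on platelets, of the collagen receptor glycoprotein VI. FCER1G (ENSG00000158869.10, chr1:161215234-161220699, plus strand) was at 0.458 FPKM in BC1, 1.14 in the mesoderm cells, 30.4 in the HEPs and 139.9 in the HPCs. It moved earlier than TYROBP: it rose 26.8-fold (13.6 to 72.0) into the HEPs and 4.60-fold (3.95 to 5.37) into the HPCs. The BC1 value is under the floor of 3 fragments, so the net rise from BC1 to CD43+ is at least 289-fold.

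The balance of the adaptors shifted between the later populations. TYROBP stood at 0.267 times FCER1G in CD31+CD34+ and at 1.15 times FCER1G in CD43+. At the median transcript lengths the CD43+ intervals were 150.9 to 172.3 FPKM for TYROBP and 130.7 to 149.5 for FCER1G. At the shortest transcripts they would be wider, and whether they would then overlap was not tested. In BC1 and APLNR+ the ratios were 2.99 and 2.07, where FCER1G rested on fewer than 8 fragments. The coding transcripts of both genes are short, with medians of 541 and 571 bases, so that their FPKM depend on the fragment length taken off by the quantification more than those of longer genes.

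**Figure D2:**
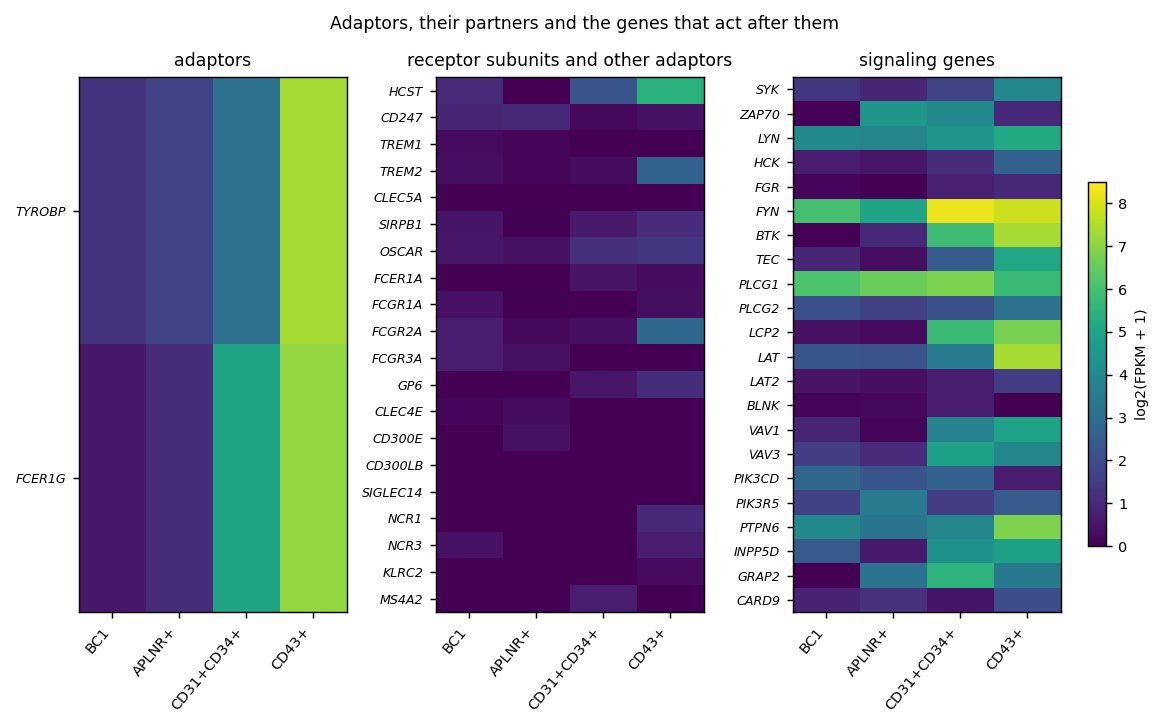
log2(FPKM + 1) in the 4 libraries, by color, of the adaptors TYROBP and FCER1G, of 20 receptor subunits and other adaptors and of 22 signaling genes. The adaptors reach 161 and 139.9 FPKM in CD43+, most receptor subunits stay dark, with 6 of the 20 at or above 1 FPKM in any library, and several signaling genes are bright from CD31+CD34+ onward.

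The receptor subunits and other adaptors listed beside these adaptors, not all of which pair with them, were mostly low. Of 20 receptor subunits and further adaptors, 6 reached 1 FPKM in at least 1 library, 1 rose and 0 fell from mesoderm to HEPs, and 3 rose and 0 fell into CD43+. HCST (DAP10), an adaptor without an ITAM that pairs with NKG2D, rose 12.0-fold (7.77 to 20.0) from 3.64 to 43.5 FPKM at the last step. FCGR2A, an IgG receptor with its own ITAM, rose from 0.270 to 6.38 FPKM. TREM2, the lipid receptor that signals through DAP12, rose from 0.221 to 5.41 FPKM. OSCAR, a collagen receptor that signals through the Fc receptor gamma chain, was at 1.61 FPKM in CD43+ and 1.23 in CD31+CD34+, within counting error of each other. TYROBP itself, at 161 FPKM, stood well above each of these receptors per length in the HPCs.

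Downstream of the adaptors, 9 of 22 kinases, scaffolds and lipid-modifying enzymes rose and 1 fell from mesoderm to HEPs, and 9 rose and 4 fell into CD43+, with median changes of 0.68 and 0.93. The shares of all genes kept that rose and fell were 13.0% and 11.4%, then 7.63% and 13.5%. LAT, the membrane scaffold phosphorylated after ITAM signaling in T cells and platelets, rose 15.9-fold (14.0 to 18.2) from 10.4 to 165 FPKM at the last step. BTK, a Tec-family kinase, was at 0.957 FPKM in mesoderm, 55.2 in HEPs and 166 in HPCs. PTPN6 (SHP-1), the phosphatase that dampens ITAM signals, rose 8.34-fold (6.88 to 10.2) to 115 FPKM. FYN, a Src-family kinase, was the most abundant of the list at 231 FPKM in CD43+ after 306 in CD31+CD34+.

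LAPTM5 encodes a transmembrane protein of late endosomes and lysosomes that is largely restricted to blood cells and promotes the breakdown of antigen receptors. LAPTM5 (ENSG00000162511.7, chr1:30732469-30757820, minus strand) was at 0.995 FPKM in BC1, 1.30 in the mesoderm cells, 180 in the HEPs and 205 in the HPCs. The libraries fell into a low and a high pair, with the boundary between mesoderm and HEPs. The rise from mesoderm to HEPs was 139-fold (106 to 183), a change of 6.30 and the largest of the 10 genes at any step. From there to CD43+ the change was 0.19, a level 1.14-fold higher (1.10 to 1.17), and LAPTM5 did not count as risen.

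The HEPs thus held 87.8% of the LAPTM5 level of the HPCs. The same share was 43.7% for CD37, 21.7% for FCER1G, 15.7% for WAS, 15.2% for LCP1, 12.7% for SPN and 9.88% for CORO1A. Over the 864 genes of the table that rose by at least 2 on the log2 scale from APLNR+ to CD43+, the median share was 29.5% and the quartiles were 10.1% and 63.5%. LAPTM5 lay above the upper quartile, TYROBP lay below the lower, and FCER1G, WAS, LCP1, SPN and CD37 lay between them. CORO1A was not among these 864 genes.

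Both relatives of LAPTM5 had their lowest level in the HPCs. LAPTM4B, a lysosomal protein of many tissues, was at 261, 643, 410 and 157 FPKM in the order of the populations and fell at the last step. LAPTM4A was at 129, 108, 105 and 65.3 FPKM. The share of LAPTM5 in the summed FPKM of the 3 genes went from 0.173% in mesoderm to 25.9% in HEPs and 48.0% in HPCs, where it was the most abundant of the 3.

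CD53 and CD37 encode tetraspanins, proteins that organize receptors and integrins into membrane domains, and both are largely limited to white blood cells. CD53 (ENSG00000143119.12, chr1:110873154-110899928, plus strand) was at 0.571 FPKM in BC1, 0.262 in the mesoderm cells, 0.212 in the HEPs and 1.14 in the HPCs. CD43+ was the highest library, 5.37-fold above CD31+CD34+ (2.33 to 16.6), but at this low level the change on the log2 scale was 0.82, under the threshold. With a pseudocount of 0.1 in place of 1 it was 1.99, and with values rescaled to TPM it was 1.01, so that CD53 counted as risen in both. CD53 was 1.99-fold higher (1.06 to 4.19) in CD43+ than in undifferentiated BC1 cells.

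CD37 (ENSG00000104894.11, chr19:49335171-49343335, plus strand) was at 1.35 FPKM in BC1, 2.08 in the mesoderm cells, 6.16 in the HEPs and 14.1 in the HPCs. It rose 2.97-fold (2.07 to 4.28) and then 2.29-fold (1.86 to 2.84), with changes of 1.22 and 1.08. CD37 shares 319 of its 4161 exon bases with TEAD2 on the opposite strand, and the library kit does not mark strand, so part of its reads cannot be told apart from those of TEAD2. TEAD2, a transcription factor of the Hippo pathway, was at 102, 143, 69.0 and 36.5 FPKM in the order of the populations, lowest where CD37 was highest. Another 132 exon bases are shared with AC011450.1, a long intergenic RNA also on the opposite strand. It was at 0.402, 0.601, 2.11 and 1.34 FPKM, so it was higher in HEPs than in mesoderm, as CD37 was.

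CD37 and CD53 remained a small part of the 15 tetraspanins compared here. In CD43+, CD37 supplied 1.14% and CD53 0.0923% of the summed FPKM of 15 tetraspanins, ranks 12 and 15. CD63, a tetraspanin of lysosomes and secretory granules, was at 421 FPKM in CD31+CD34+ and 560.0 in CD43+. TSPAN32, a tetraspanin of blood cells, rose 7.75-fold (7.01 to 8.59) at the last step, from 19.3 to 149 FPKM. Of the 13 relatives, 7 rose and 1 fell from mesoderm to HEPs, and 2 rose and 4 fell into CD43+. Among all genes kept the shares were 13.0% and 11.4% at the former step and 7.63% and 13.5% at the latter.

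**Figure D3:**
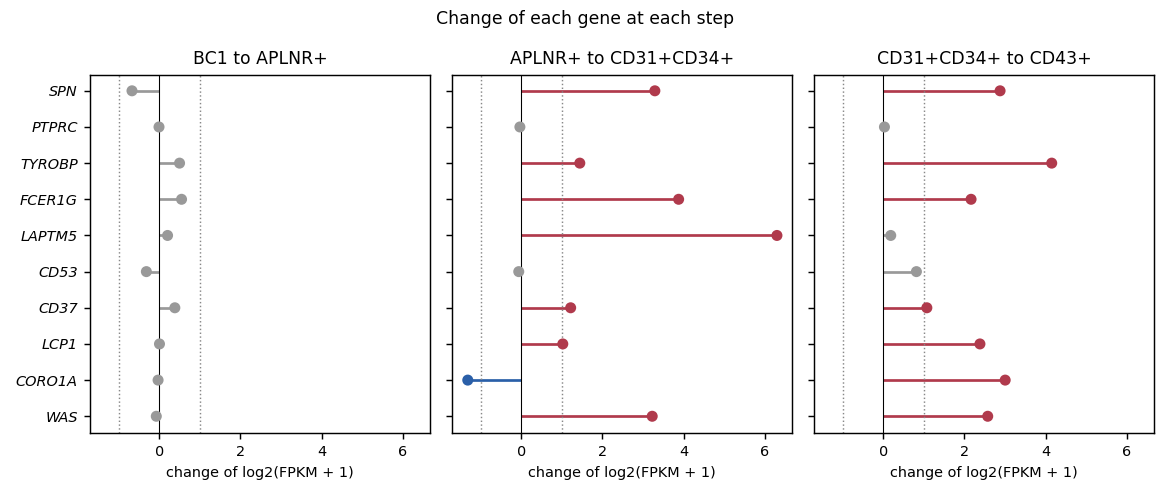
Change of log2(FPKM + 1) of each of the 10 genes at the 3 steps, with dotted lines at the threshold of 1 in either direction, red for a rise, blue for a fall and gray for a smaller change. No gene passes the threshold at the first step, LAPTM5 has the largest change at the second (6.30) and TYROBP at the third (4.15), and CORO1A is the gene that fell (-1.32).

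LCP1 encodes L-plastin, the actin-bundling protein of white blood cells. LCP1 (ENSG00000136167.13, chr13:46125920-46211871, minus strand) was at 0.993 FPKM in BC1, 1.004 in the mesoderm cells, 3.08 in the HEPs and 20.3 in the HPCs. It rose 3.07-fold (2.18 to 4.40) into the HEPs, just past the threshold with a change of 1.03, and 6.59-fold (5.53 to 7.90) into the HPCs. With median-of-ratios size factors the former change was 0.99 and no longer counted as a rise. The plastins changed rank with it: PLS3 (T-plastin), the form of most solid tissues, was at 57.8, 31.1, 36.2 and 14.6 FPKM, and PLS1 (I-plastin) at 19.5, 4.26, 6.78 and 17.2. LCP1 went from 1.27% of the plastin FPKM in BC1 to 6.68% in CD31+CD34+ and 39.0% in CD43+. It had the highest FPKM of the 3 there, with PLS1 close to it. Whether counting error separates LCP1 from PLS1 in that library was not tested. PLS1 also rose at the last step, 2.53-fold (1.82 to 3.53).

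CORO1A encodes coronin 1A, which binds actin filaments and the Arp2/3 complex and is needed for the survival and migration of lymphocytes. CORO1A (ENSG00000102879.15, chr16:30182827-30189076, plus strand) was at 10.1 FPKM in BC1, 9.85 in the mesoderm cells, 3.36 in the HEPs and 34.0 in the HPCs. It was the gene of the 10 with a level well above 1 FPKM in undifferentiated cells, and the HEPs were its lowest library. CORO1A fell 2.93-fold (2.12 to 4.22) from mesoderm to HEPs and rose 10.1-fold (7.57 to 14.1) from there to CD43+, which left it 3.38-fold (2.77 to 4.17) above BC1.

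Coronin 1A did not become the main coronin. CORO1C, which is widely expressed, was at 186 FPKM in CD43+ and CORO1B at 106, and CORO1A held 9.12% of the summed FPKM of 7 coronins, rank 4. Of the 6 relatives 3 rose and 0 fell from mesoderm to HEPs, the step at which CORO1A fell, and 0 rose and 3 fell into CD43+, the step at which it rose. CORO1A shares 541 of its 4871 exon bases with the antisense gene AC012645.3, which was at most at 0.392 FPKM, and reads of the antisense gene cannot be told apart from its own.

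WAS encodes the Wiskott-Aldrich syndrome protein, the blood cell activator of the Arp2/3 complex, which starts actin branches. WAS (ENSG00000015285.10, chrX:48676596-48691427, plus strand) was at 0.454 FPKM in BC1, 0.385 in the mesoderm cells, 12.0 in the HEPs and 76.3 in the HPCs. It rose 31.1-fold (16.8 to 71.1) into the HEPs and 6.37-fold (5.65 to 7.21) into the HPCs, nearly the course of SPN. Its relatives moved less. From mesoderm to HEPs 2 of the 6 relatives rose, WASF2 from 21.0 to 46.1 FPKM and WASF1 from 15.2 to 32.6, and 0 fell. At the last step WASF2 went to 25.1 FPKM and WASF1 to 22.8, and 0 of the 6 rose or fell. WAS therefore went from 0.681% of the summed FPKM of 7 family genes in mesoderm to 10.5% in HEPs and 53.0% in HPCs, the most abundant of the 7.

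**Figure D4:**
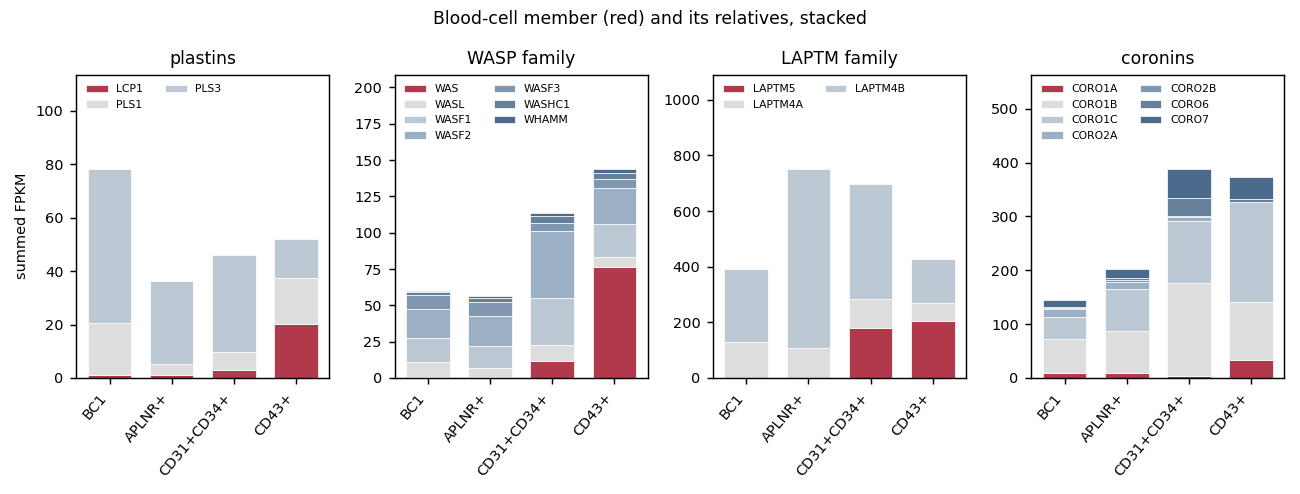
Summed FPKM of 4 gene families in the 4 libraries, stacked, with the blood cell member in red and its relatives in gray and blue. In CD43+ the red part is 39.0% of the plastins, 53.0% of the WASP family, 48.0% of the LAPTM family and 9.12% of the coronins.

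The complex that WAS and CORO1A act on was present throughout. Of 9 Arp2/3 subunit genes, 0 rose or fell from BC1 to mesoderm and from HEPs to HPCs, and 1 rose between them. That gene was ARPC1B, the subunit form prominent in blood cells, at 109, 134, 304 and 361 FPKM. Of 22 further cytoskeletal and adhesion genes with known roles in blood cells, 10 rose and 0 fell from mesoderm to HEPs, and 9 rose and 1 fell into CD43+. For all genes kept the shares were 13.0% and 11.4%, then 7.63% and 13.5%. FERMT3 (kindlin-3), the integrin activator of blood cells, rose 8.42-fold (7.99 to 8.87) at the last step, from 93.8 to 790 FPKM. ARHGDIB, a regulator of the cytoskeleton abundant in blood cells, was at 1.68 FPKM in mesoderm, 129 in HEPs and 321 in HPCs. GMFG, a regulator of actin branches, was at 0.340, 109 and 118 FPKM in the same populations, so that its level was reached in the HEPs, as that of LAPTM5 was. PSTPIP2, an F-BAR protein, rose 4.07-fold from 20.2 to 82.1 FPKM at the last step.

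The wider surface coat was mixed. Of 20 further leukocyte surface genes, 6 rose and 2 fell from mesoderm to HEPs, and 8 rose and 1 fell into CD43+, with median changes of 0.07 and 0.40. Across all genes kept, 13.0% rose and 11.4% fell at the former step, and 7.63% rose and 13.5% fell at the latter. CD69, an early activation antigen, was listed at 0 in mesoderm, and it reached 21.4 FPKM in HEPs and 60.0 in HPCs. CD84, a SLAM-family receptor also found on platelets, rose at least 198-fold, from 0.0167 to 30.2 FPKM at the last step. SELPLG, the ligand of P-selectin and also among the mucins above, rose 10.7-fold (8.37 to 13.6) to 24.3 FPKM. ICAM3, an adhesion molecule of white blood cells, was highest in BC1 at 11.7 FPKM and was at 7.60 in CD43+.

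The lineage markers that moved with these genes in the CD43+ library were mainly erythroid and megakaryocytic. The 8 erythroid markers summed to 94.7 FPKM in CD31+CD34+ and 6343 in CD43+, where HBE1 made up most of the sum at 5271. The 8 megakaryocyte markers summed to 101 and 3681. All 8 of each list were at or above 1 FPKM in CD43+, as were 7 and 6 already in CD31+CD34+. At this step 7 of the erythroid and 8 of the megakaryocyte markers rose, and 0 of either fell. The 12 myeloid markers summed to 75.6 and 275 FPKM, with 7 of them at or above 1 FPKM in CD31+CD34+ and 6 in CD43+. Of the 12, 4 rose and 1 fell at this step. AIF1, at 17.8 FPKM in BC1 and 12.6 in CD31+CD34+, was the highest of them in CD43+ at 125. SPI1 (PU.1) followed in CD43+ at 104 FPKM. ELANE was listed at 0 there, and MPO was at 0.0790 and CD14 at 0.0339 FPKM.

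Markers of lymphocytes and mast cells were low in CD43+. The 5 T cell markers summed to 1.65 FPKM and the 5 natural killer cell markers to 2.13. The 5 mast cell markers summed to 18.8 FPKM, nearly all of it from HDC at 18.3. The 5 B cell markers summed to 9.36, most of it from CD79B at 7.79. The 8 endothelial markers went from 1086 FPKM in CD31+CD34+ to 263 in CD43+. The part of these other cell types in the levels of the 10 genes was not tested.

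**Figure D5:**
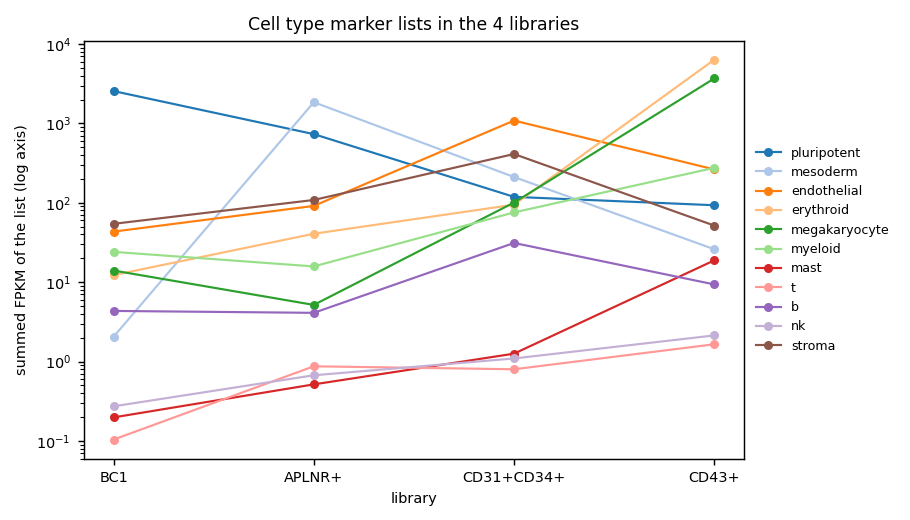
Summed FPKM (log axis) of 11 lists of cell type markers in the 4 libraries, 1 line per list. In CD43+ the erythroid (6343) and megakaryocyte (3681) lists stand highest, the myeloid list is at 275, and the T and natural killer cell lists are at 1.65 and 2.13.

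Among the 13910 protein-coding genes kept, the genes with the course most like each of the 8 members that reached 10 FPKM were found by Euclidean distance of log2(FPKM + 1) over the 4 libraries. SPN was nearest to GP1BA, a platelet glycoprotein (distance 0.27), to WAS (0.58) and to MMRN1 (1.05). FCER1G was nearest to MEF2C (0.22), SPI1 (0.44) and MEIS1 (0.77). CD37 was nearest to NUDT18 (0.25), LYZ (0.28) and SUSD1 (0.33), and LCP1 to MRVI1 (0.37), RIN3 (0.52) and TUBA8 (0.53).

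WAS was nearest to SPN (0.58), MMRN1 (0.76) and GP1BA (0.82). LAPTM5 was nearest to TXNIP (0.68), ARHGDIB (0.83) and LMO2 (1.03). TYROBP was nearest to OAS3 (0.85), IRF7 (1.09) and LAT (1.16), and CORO1A to TSPAN33 (0.98), PNPT1 (1.002) and TRIB1 (1.07). With 4 libraries such distances describe likeness of level and course in these samples and nothing beyond.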

How the data were processed

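RNA sequencing libraries were made with an Illumina TruSeq RNA kit, which does not mark strand, from 4 populations of 1 cell line. The values deposited by the authors are FPKM per gene, in a table for the whole series. The submitters' processing notes name BWA, Bowtie, RSEM and hg19, with no role or order, but 58011 of the 58274 identifiers (99.5%) are in GENCODE release 29 for GRCh38 and nearly all with the same version have the same position there, and coordinates here follow GRCh38 with the first base as 1. Rows of 1 identifier were summed. Columns were assigned to populations by name.

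Depth was recovered from the steps between low FPKM values of genes with 1 transcript of at least 1000 bases. The fit gave 19600000, 21500000, 23600000 and 21600000 fragments in the order BC1, APLNR+, CD31+CD34+ and CD43+, with 255, 265, 280 and 285 bases taken off the length, and between 84.3% and 86.4% of the low values used lay within 0.1 of a whole number. Fragments per gene were approximated with the median over its protein-coding transcripts as length, which makes intervals approximate. Folds have exact Clopper-Pearson 95% intervals, and values of at most 3 fragments per library were set to that floor, which gives a lower bound. Both cover counting error only. Values were analysed as log2(FPKM + 1), which understates the change of low genes. Genes that reached 1 FPKM in some library were kept (17137, of which 13910 protein-coding), and a change of at least 1 counts as a rise or fall. No test was run, with 1 library per population. Python 3.11.15, numpy 2.4.6, pandas 2.3.3, scipy 1.17.1 and matplotlib 3.10.9 were used.

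The 10 genes, the gene lists and the rule for named genes (of each list the 4 highest in CD43+, for families the 2 highest, and the largest falls or the largest level elsewhere) were chosen with earlier results of these data known. Genes named beyond that rule, among them MPO, ELANE, CD14 and TEAD2, are cited as markers or because they overlap a gene described. A gene of the surface list that the rule names is not reported here. Promoter sequences and their 8 matched symbols come from RefSeq. The alternatives were a pseudocount of 0.1, rescaling to TPM, median-of-ratios size factors, the highest row in place of the sum, a threshold of 2, and other filters.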

Additional observations from a re-analysis of the deposited data

How the results depend on the processing

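A count of the 10 genes is said to shift here when it changed by more than 1.5 times, or to or from 0. With a pseudocount of 0.1, 2 of 7 counts shifted, and with a threshold of 2, 2 of 6 did. Rescaling to TPM, size factors and the highest row in place of the sum each shifted 0 of 7. With a pseudocount of 0.1 in place of 1, 1 gene rose (FCER1G) and 1 fell (SPN, -1.55) from BC1 to APLNR+, where 0 and 0 had done so. With a threshold of 2 in place of 1, the step from mesoderm to HEPs had 4 rises and 0 falls, in place of 7 and 1. The step from HEPs to HPCs then had 6 rises, in place of 7. The shares of all genes were computed for FPKM as deposited, with a pseudocount and a threshold of 1. Counts under these alternatives therefore have no matching share of all genes beside them. Rescaling to TPM or by size factors left each count of the 10 genes within 1.5 times of its value: with size factors LCP1 (0.99) no longer rose from mesoderm to HEPs, which left 6 rises, and with TPM CD53 (1.01) also rose from HEPs to HPCs, which made 8. These rescalings moved the LAPTM5 change at the last step from 0.19 to 0.07 and 0.29, and TPM moved the median of all genes at that step from -0.08 to -0.19. Without the filter the shares of all genes that rose or fell at the 3 steps dropped to between 2.24% and 3.98%. No paired analysis was possible because each population had 1 library, and for the same reason no replicate could be left out. Depth limits PTPRC and, in BC1, FCER1G, which rest on 3 fragments or fewer at the median transcript length and on up to 3.53 and 3.01 at the longest.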

Other observations

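A few genes of the same lists went against the 10 genes at the last step. ZAP70, the kinase that binds phosphorylated ITAMs in T cells, was at 0.0601 FPKM in BC1, 21.6 in mesoderm, 15.9 in HEPs and 0.933 in HPCs, and fell 17.0-fold (11.7 to 25.3) at the last step. GRAP2, an adaptor of LAT signaling, was at 8.37 FPKM in mesoderm, 44.5 in HEPs and 9.86 in HPCs, and fell 4.51-fold (3.90 to 5.24) there. CAPG, which caps actin filaments, was at 40.5, 52.7, 30.9 and 5.03 FPKM and fell 6.14-fold (4.78 to 8.02). MRC1, a receptor of macrophages and some endothelial cells, was at 0.0944 FPKM in mesoderm, 13.8 in HEPs and 0.433 in HPCs.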
